A study of Mus musculus with 2 samples.

Results

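The genes described here encode the enzymes that break glucose down to lactate (glycolysis), those of the pentose phosphate pathway, and those that store and release glucose as glycogen. They were taken by symbol from a table of 23361 rows with values, measured in mouse brown preadipocytes and in the adipocytes made from them. Of 45 symbols on the list, 44 had values, with 28 genes of glycolysis and glucose uptake, 7 of the pentose phosphate pathway and 9 of glycogen metabolism. The row named Pkm2 held no values. The pyruvate kinase gene had values under Pkm, and its M1 and M2 splice forms were not told apart.

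Glucose enters a cell through transporters of the SLC2A (GLUT) family and is trapped inside by hexokinase as glucose phosphate. From there it can go down glycolysis to pyruvate and lactate, through the pentose phosphate pathway, which yields NADPH for fatty acid synthesis and ribose for nucleotides, or into glycogen. Many of these steps have several isoenzymes, encoded by separate genes with their own tissue patterns. Brown adipose tissue takes up large amounts of glucose, builds fat from it and burns it to make heat.

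RNA-Seq compared brown preadipocytes (D0) with differentiated brown adipocytes (D7), with 1 library per stage. The cells came from the interscapular brown fat of newborn C57BL/6 mice in the words of the labels (C57BL/6J in the study's methods), and per the labels both stages were grown from 4 days before induction in DMEM with 10% fetal bovine serum, T3 at 1 nM and insulin at 0.1 μM. Cells at D7 had in addition been given indomethacin (0.125 mM), dexamethasone (2 μg/ml) and IBMX (0.5 mM) for 2 days from day 0. The labels call the cells primary cultures, while the study's methods describe immortalization with large T and other insulin and dexamethasone concentrations, and neither says which animals gave which library. All 8 adipocyte markers were higher at D7, with a summed FPKM of 75.3 at D0 against 18404 at D7. The brown markers Ucp1, Cidea, Elovl3 and Cox8b were listed at 0 at D0 and were above 0 at D7, and the 7 markers of preadipocytes or fibroblasts summed to 3712 at D0 against 1706 at D7. Of these 7, Col1a1, Pdgfrb and Thy1 were at least 2-fold lower at D7, Col3a1 (ratio 0.665) and Pdgfra (0.973) differed by less than 2-fold, and Dlk1 (3.57 at D0 against 38.5 at D7) and Cd34 (1.85 against 15.4) were higher at D7. The values are FPKM (fragments per kb of transcript, scaled to the depth of the library), relative to about 21471685 fragments at D0 and 18265885 at D7.

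With 1 library per stage the differences have no replicate check, and p-values are not given. A gene was called higher where FPKM at D7 was at least 2.0 times that at D0 and lower where it was 0.5 times or less, and genes listed at 0 in a library were given no ratio. The interval given with each ratio is an exact 95% Clopper-Pearson interval on the approximate number of fragments. It covers counting error only, and so compares these 2 libraries and not the stages. FPKM is per transcript length, so levels of different genes can be set side by side.

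Of the 44 genes, 41 were above 0 in both libraries. FPKM was at least 2.0-fold higher at D7 in 17 of them and lower in 3, where 18.5% of all 14984 genes above 0 in both libraries were higher and 13.2% were lower. These 17 and 3 genes are 41.5% and 7.32% of the 41. All 20 called genes reached an FPKM of 1 in at least 1 library, and among the 11966 genes that did so 15.6% were higher and 12.0% were lower. The median log2 ratio of the 41 genes was 0.58, beside 0.02 for all genes. With Fbp2 and Gys2, which were listed at 0 at D0 only, placed at their lowest possible ratio, the median of 43 genes was 0.73. The summed FPKM of the 44 genes was 7295 at D0 against 11648 at D7, or 1.43% and 2.23% of the FPKM of all rows. The interval, for counting error only, left out a ratio of 1 in 36 of the 41 genes, also in Eno1 with a ratio of 1.05 (1.03 to 1.07). The share over all genes was not worked out.

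The 3 pathways had different counts. In the pentose phosphate pathway 6 of 7 genes were higher and 0 lower, with a median log2 ratio of 2.09. In glycogen metabolism 3 of 8 genes with a ratio were higher and 0 lower, with a median of 0.84. In glycolysis 8 of 26 were higher and 3 lower, and the median of 0.30 turned to -0.05 when values below 0.01 were raised to 0.01 and the libraries were scaled by their own medians, a scaling that shifts the log2 ratio of all genes by -0.35. Under that scaling the ratios of Pfkp, Pfkfb2, Aldoc, Pgam1, Eno1 and Pgls also passed from above 1 to below 1, Gpi1, Rpe and Pgm2 were short of 2-fold, and Hk1 and Pgm1 passed 2-fold. With a pseudocount of 1 Hk3 and Eno2 were short of it. The plot of levels by gene shows every member in both libraries.

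**Figure D1:**
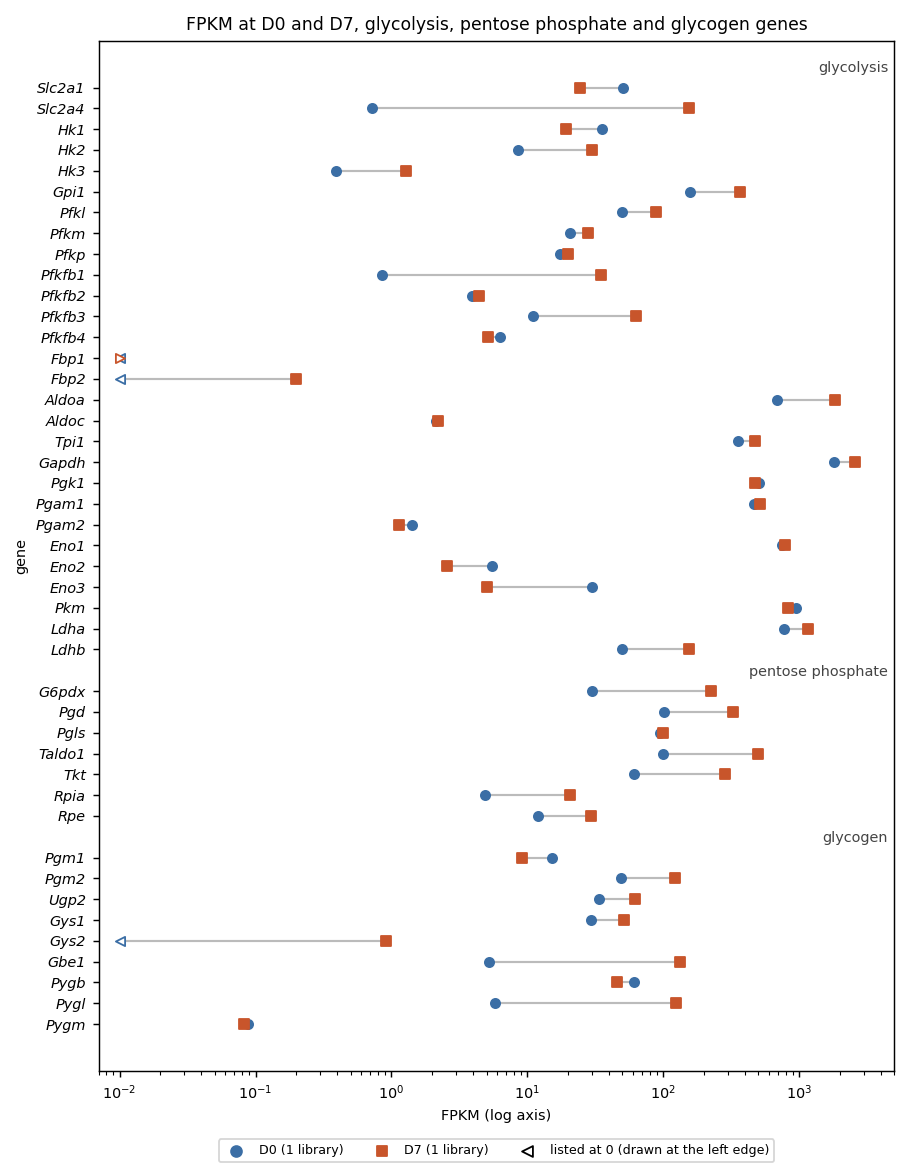
FPKM of the 44 genes at D0 (circles) and D7 (squares) on a log axis, 1 library each, with open triangles for values listed at 0. The widest gaps among genes above 0 in both libraries are those of Slc2a4 (0.722 and 154), Pfkfb1 (0.846 and 35.0), Gbe1 (5.22 and 133) and Pygl (5.76 and 123).

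The highest ratio of the 41 genes was that of a glucose transporter. Slc2a1 (GLUT1, ENSMUSG00000028645.11, chromosome 4, 119108711 to 119137983), the transporter most dividing cells rely on, had an FPKM of 50.4 at D0 against 24.5 at D7, and the ratio was 0.485 (0.456 to 0.517). Slc2a4 (GLUT4, ENSMUSG00000018566.14, chromosome 11, 69942539 to 69948188), the transporter that insulin brings to the surface of fat and muscle cells, had an FPKM of 0.722 at D0 (about 36 fragments) against 154 at D7 (about 6575). Its ratio was 213 (154 to 304), and 50 of the 11966 genes with FPKM of at least 1 in a library had a higher one. The transporters thus changed places, with Slc2a1 at 69.8 times the level of Slc2a4 at D0 and Slc2a4 at 6.28 times the level of Slc2a1 at D7. In bulk RNA such as this, fewer cells of a type and less RNA per cell cannot be told apart.

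The share of an isoenzyme in the summed FPKM of its step does not depend on the scaling between the libraries. Slc2a1 made up 98.6% of the transporter sum at D0 and 13.7% at D7. The odds of Slc2a4 against Slc2a1 were 439 times as high at D7 (95% interval 315 to 611, counting error only). The sum of both was 51.2 at D0 against 178 at D7. Of 11 steps with several isoenzymes and a value at D0, the leading isoenzyme changed in 3, which were glucose transport, hexokinase and glycogen phosphorylase, and stayed the same in 8. The plot of isoenzyme shares gives all 11.

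**Figure D2:**
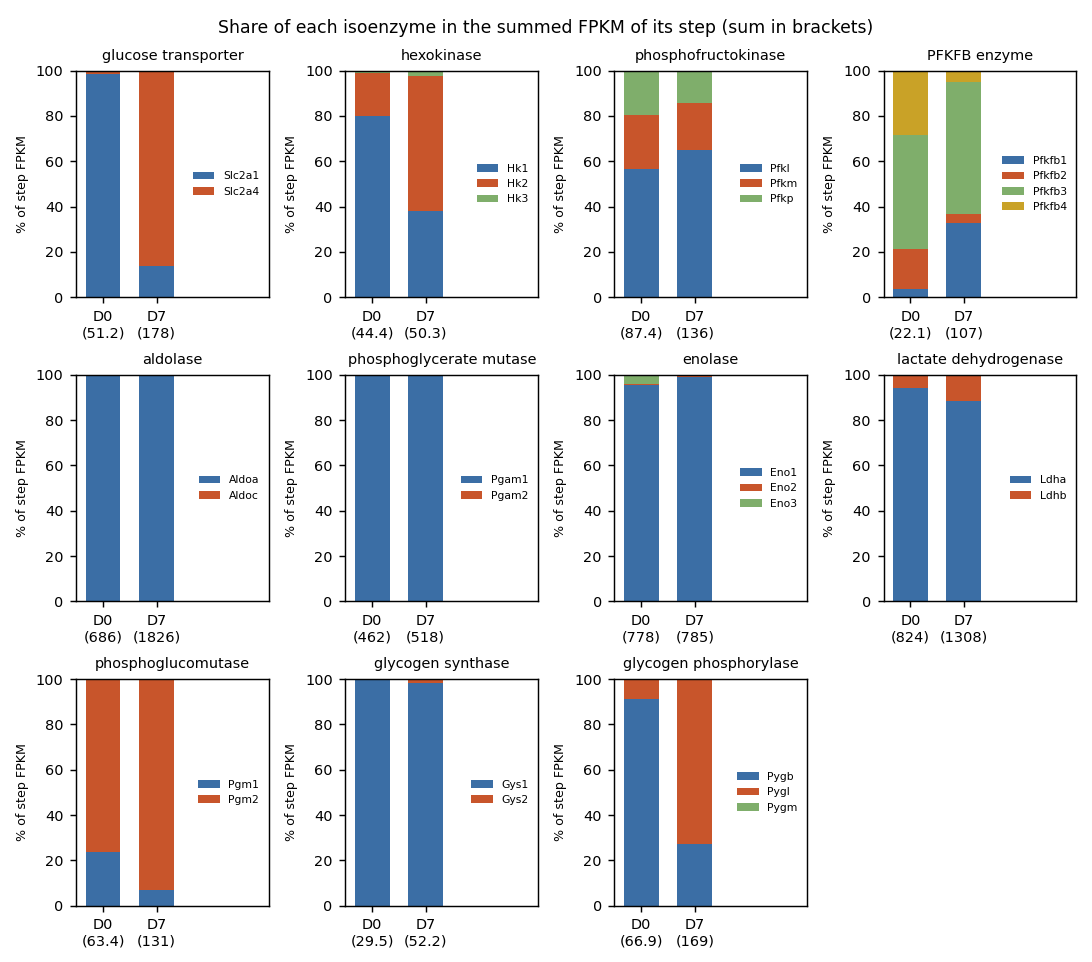
Share of each isoenzyme in the summed FPKM of its step (y axis, percent) at D0 and D7, 1 library each, with the summed FPKM in brackets under each bar. The leading isoenzyme changes in the glucose transporter, hexokinase and glycogen phosphorylase panels, where the D0 leader goes from 98.6% to 13.7%, from 79.8% to 38.2% and from 91.3% to 27.0%, and is the same at D0 and D7 in the other 8 panels.

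Of 22 other genes of sugar uptake and glycolysis, 16 had a ratio, and 4 were higher and 1 was lower. That is 25% and 6.25% of the 16, where 18.5% and 13.2% of all genes above 0 in both libraries were. Slc2a5, a fructose transporter, was among the higher ones, with an FPKM of 0.399 at D0 against 1.05 at D7. The lower one was Galk1, which phosphorylates galactose, with 45.4 at D0 against 20.5 at D7 and a ratio of 0.452 (0.405 to 0.503). Among proteins that govern GLUT4 traffic, Tbc1d4, a Rab-GTPase activating protein that insulin signalling switches off, had an FPKM of 0.288 at D0 against 12.3 at D7, with a ratio of 42.6 (31.0 to 60.2). Its relative Tbc1d1 went the other way, with 14.3 at D0 against 5.83 at D7 and a ratio of 0.408 (0.370 to 0.449). Sort1, sortilin, a sorting receptor of GLUT4 vesicles, had an FPKM of 6.85 at D0 against 51.9 at D7, with a ratio of 7.57 (7.07 to 8.11). The vesicle protein Lnpep and the GTPase Rab10 were both under 2-fold, with ratios of 1.54 and 1.13.

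Hexokinases phosphorylate glucose, and here the leader passed from Hk1 to Hk2. Hk1 (ENSMUSG00000037012.18, chromosome 10, 62268855 to 62379908), the widely expressed form, had an FPKM of 35.4 at D0 against 19.2 at D7, with a ratio of 0.542 (0.509 to 0.577), just inside 2-fold. Hk2 (ENSMUSG00000000628.10, chromosome 6, 82725025 to 82774454), the form of insulin-responsive tissues, had 8.59 at D0 against 29.8 at D7, with a ratio of 3.47 (3.23 to 3.74). Hk1 was 4.13 times as high as Hk2 at D0, and Hk2 was 1.55 times as high as Hk1 at D7. The share of Hk2 in the 3 hexokinases was 19.3% at D0 and 59.3% at D7, and its odds were 6.07 times as high (5.52 to 6.68). The sum of the 3 was nearly level, 44.4 at D0 against 50.3 at D7.

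Hk3, a form known from white blood cells, was low, with an FPKM of 0.392 at D0 against 1.28 at D7, from about 26 and 71 fragments, and a ratio of 3.27 (2.06 to 5.34). Macrophage markers were higher at D7 in 10 of 11, with a sum of 156 at D0 against 584 at D7 and none at 0 in either library, and their part in the value of Hk3 was not tested.

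The promoters of Hk1 and Hk2 are shown because these genes exchanged the lead. Each is the 250 bases before the RefSeq start, on the gene's own strand, in the build GRCm38.p6, at chr10:62379909-62380158 (minus strand) for Hk1 and at chr6:82774455-82774704 (minus strand) for Hk2. Both strands were searched for CACGTG, the letters of an E-box, and for ACGTG, the core letters of a hypoxia response element, which reads CACGT on the other strand and lies within every CACGTG. Capitals mark the letters found.
Hk1: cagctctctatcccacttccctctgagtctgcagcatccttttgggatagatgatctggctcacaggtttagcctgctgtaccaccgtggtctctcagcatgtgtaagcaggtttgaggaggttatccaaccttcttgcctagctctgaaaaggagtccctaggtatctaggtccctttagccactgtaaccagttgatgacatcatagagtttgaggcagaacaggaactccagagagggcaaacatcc
Hk2: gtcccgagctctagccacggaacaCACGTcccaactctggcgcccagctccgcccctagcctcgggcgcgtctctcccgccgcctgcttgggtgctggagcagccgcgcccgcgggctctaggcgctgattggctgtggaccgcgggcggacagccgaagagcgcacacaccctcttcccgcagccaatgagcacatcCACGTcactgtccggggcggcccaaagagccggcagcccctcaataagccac
The Hk2 window held CACGT at 226 and 52 bases upstream of the start, and the Hk1 window held none of these letters. RefSeq gave 2 windows for Hk1 and 1 for Hk2, and only the Hk1 window nearest the start of its deposited locus was read. Windows were found for 42 of the 44 genes, all but Slc2a4 and Gys2. Among them 14 held ACGTG, or 33.3%, where 16.6% of 32851 windows of all genes did, and 3 held CACGTG, or 7.14%, beside 6.02% of all. A window with ACGTG was present for 5 of 16 genes higher at D7, 1 of 3 lower and 7 of 21 under 2-fold, and for Fbp2. Such a match describes the sequence and is neither a binding site nor a cause. The counts include the window of Pfkm, which held both motifs but lies 53845 bases from the start of its deposited locus. The window of Pfkfb2, with no match, lies 13205 bases from the start of its locus.

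After hexokinase, glucose phosphate is rearranged, phosphorylated again and cut into triose phosphates. Gpi1, glucose phosphate isomerase, had an FPKM of 157 at D0 against 367 at D7, with a ratio of 2.33 (2.28 to 2.39). Aldoa (ENSMUSG00000030695.16, chromosome 7, 126795234 to 126800751), the aldolase of most tissues, had 684 at D0 against 1824 at D7, with a ratio of 2.67 (2.62 to 2.71), and went from rank 124 to rank 14 of all genes by FPKM. The other 5 genes from Gpi1 to Tpi1 were under 2-fold, and the median log2 ratio of the 7 was 0.44. Triose phosphate isomerase (Tpi1) had 356 at D0 against 472 at D7, a ratio of 1.33. Aldoc, the brain aldolase, was low in both libraries, at 2.14 and 2.20, and Aldoa made up 99.7% of the aldolase sum at D0 and 99.9% at D7.

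Phosphofructokinase, the committed step of glycolysis, forms tetramers from liver (Pfkl), muscle (Pfkm) and platelet (Pfkp) subunits. The 3 genes were all under 2-fold. Pfkl had an FPKM of 49.4 at D0 against 88.7 at D7, with a ratio of 1.80 (1.72 to 1.87). Pfkm had 20.7 at D0 against 28.0 at D7, a ratio of 1.35 (1.25 to 1.46). Pfkp had 17.3 at D0 against 19.8 at D7, and its log2 ratio of 0.20 became -0.15 under the scaling by library medians. Pfkl led at both stages, with 56.5% of the sum at D0 and 64.98% at D7.

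The PFKFB enzymes make and remove the fructose bisphosphate that switches phosphofructokinase on, and their sum went from 22.1 at D0 to 107 at D7. Pfkfb3 (ENSMUSG00000026773.19, chromosome 2, 11471433 to 11554077), an inducible form in which the synthesizing activity prevails, had 11.0 at D0 against 62.5 at D7, with a ratio of 5.66 (5.13 to 6.25). Pfkfb1 (ENSMUSG00000025271.13, chromosome X, 150588229 to 150643878), the liver and muscle form, had 0.846 at D0 (about 28 fragments) against 35.0 at D7 (about 996), with a ratio of 41.4 (28.5 to 62.7). After Slc2a4 this was the highest ratio among the members. The share of Pfkfb1 in the sum was 3.83% at D0 and 32.7% at D7, with odds 12.2 times as high (8.35 to 17.9), while Pfkfb3 held 49.98% and 58.4%. Pfkfb4 had 6.32 at D0 against 5.17 at D7, and its share was 28.6% and 4.82%. Pfkfb2, the heart form, had 3.89 at D0 against 4.42 at D7, and the interval of its ratio of 1.13 held 1 (0.921 to 1.398).

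Fructose bisphosphatases run the phosphofructokinase step backwards in gluconeogenesis. Fbp1, the liver form, was listed at 0 in both libraries, where a count of 0 allows up to 3 fragments, or an FPKM of 0.108 at D0 and of 0.127 at D7. Fbp2, the muscle form, was listed at 0 at D0 and at 0.197 at D7, from about 4 fragments, and the limit at D0 was 0.119. Neither gene was thus measurably present at D0. Among the other genes of gluconeogenesis, the glucose phosphatase gene G6pc was listed at 0 in both libraries. G6pc3, from the same list, had an FPKM of 22.3 at D0 against 22.8 at D7.

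Lower glycolysis, from Gapdh to Ldhb, showed smaller ratios. Of its 10 genes 1 was higher and 2 were lower, and the median log2 ratio was -0.01. That is 10% and 20% of the 10, where 18.5% and 13.2% of all genes above 0 in both libraries were. Gapdh (ENSMUSG00000057666.18, chromosome 6, 125161715 to 125166467), often used as a reference gene, had an FPKM of 1787 at D0 against 2581 at D7, with a ratio of 1.44 (1.43 to 1.46). It was the most abundant member at both stages, at rank 28 and rank 9 of all genes. Pgk1, phosphoglycerate kinase, had 503 at D0 against 471 at D7, a ratio of 0.938. Pgam1, phosphoglycerate mutase, had 461 at D0 against 517 at D7, and its log2 ratio of 0.17 became -0.19 under the scaling by library medians. Pkm, pyruvate kinase, had 939 at D0 against 825 at D7, a ratio of 0.879 (0.866 to 0.891).

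Enolase, the next to last enzyme before pyruvate, was the family with 2 of the 3 genes lower at D7. Eno1, the form of most tissues, had 742 at D0 against 777 at D7, and its log2 ratio of 0.07 became -0.29 under the scaling by library medians. Eno3 (ENSMUSG00000060600.15, chromosome 11, 70657202 to 70662513), the muscle form, had 29.97 at D0 (about 820 fragments) against 5.00 at D7 (about 116). Its ratio was 0.167 (0.136 to 0.203), the lowest of the members, and 11772 of the 11966 genes with FPKM of at least 1 in a library had a higher one. Eno2, the form of neurons, had 5.53 at D0 against 2.55 at D7, with a ratio of 0.461 (0.371 to 0.570). The sum of the 3 was level, 778 at D0 against 785 at D7, since Eno1 made up 95.4% and 99.0% of it. Gm5506, a copy of Eno1 with a row of its own at the same deposited locus, had an FPKM of 14.4 at D0 against 16.2 at D7, so the division of fragments between both is uncertain.

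Eno3 is also a gene of skeletal muscle, as are Pgam2 and Pygm. The 13 markers of skeletal muscle summed to 47.3 at D0 against 15.6 at D7, and Acta1 alone had 45.4 and 1.73. Other markers of that list were higher at D7: Mb, the oxygen-binding myoglobin, was listed at 0 at D0 and had 12.1 at D7, Myh1 had 0.0239 at D0 against 0.563 at D7, and Myh2 was listed at 0 against 0.148. Ckm and Myod1, which define muscle cells, were listed at 0 in both libraries, and 5 of the 13 were at 0 at D0 and 4 at D7. The part of such cells in the value of Eno3 was not tested. Pgam2, the muscle mutase, had an FPKM of 1.41 at D0 against 1.13 at D7, and the interval of its ratio of 0.805 held 1 (0.376 to 1.68). Pgam1 made up 99.7% and 99.8% of the mutase sum.

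Lactate dehydrogenase links pyruvate and lactate. Ldha, whose subunits favour lactate formation, had an FPKM of 775 at D0 against 1155 at D7, with a ratio of 1.49 (1.47 to 1.51). Ldhb (ENSMUSG00000030246.11, chromosome 6, 142490249 to 142507957), the heart subunit, had 49.3 at D0 against 153 at D7, with a ratio of 3.11 (2.90 to 3.32). Ldha was 15.7 times as high as Ldhb at D0 and 7.55 times at D7, and the odds of Ldhb were 2.08 times as high (1.95 to 2.23). Ldhd, a mitochondrial dehydrogenase of D-lactate, had 0.365 at D0 against 10.4 at D7, with a ratio of 28.5 (17.3 to 50.3).

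The Ldha promoter is shown because it held more of the searched letters than any other of the 42 windows. It lies at chr7:46845554-46845803 (plus strand, GRCm38.p6, RefSeq), with CACGTG at 145 and 48 bases upstream of the start and CACGT at 34, in capitals.
Ldha: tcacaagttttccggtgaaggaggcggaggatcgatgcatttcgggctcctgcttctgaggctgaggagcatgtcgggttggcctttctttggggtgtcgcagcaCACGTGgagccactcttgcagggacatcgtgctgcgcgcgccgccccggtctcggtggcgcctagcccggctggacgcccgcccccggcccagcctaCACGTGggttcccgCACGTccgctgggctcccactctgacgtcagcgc
The windows of Ldhb, Aldoa and Gpi1, which were higher at D7, held neither CACGTG nor ACGTG.

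Of 12 genes for pyruvate and lactate transport and gluconeogenesis, 11 had a ratio, and 7 were higher and 1 was lower. The shares are 63.6% and 9.09% of the 11, beside 18.5% and 13.2% of all genes above 0 in both libraries. Pcx, pyruvate carboxylase, had an FPKM of 9.86 at D0 against 842 at D7, with a ratio of 85.4 (79.7 to 91.5). The subunits of the mitochondrial pyruvate carrier were also higher. Mpc1 had 34.4 at D0 against 838 at D7, and Mpc2 had 41.0 and 569, with ratios of 24.4 (22.4 to 26.6) and 13.9 (12.9 to 15.0). The lactate transporters differed in direction. Slc16a1 (MCT1) had 5.52 at D0 against 17.8 at D7, with a ratio of 3.23 (2.92 to 3.59), while Slc16a3 (MCT4), the exporter of strongly glycolytic cells, had 42.8 at D0 against 10.1 at D7, with a ratio of 0.237 (0.212 to 0.264). Slc16a3 was 7.76 times as high as Slc16a1 at D0 and 0.568 times as high at D7. Slc37a4, the glucose phosphate carrier of the endoplasmic reticulum, had a ratio of 3.21.

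**Figure D3:**
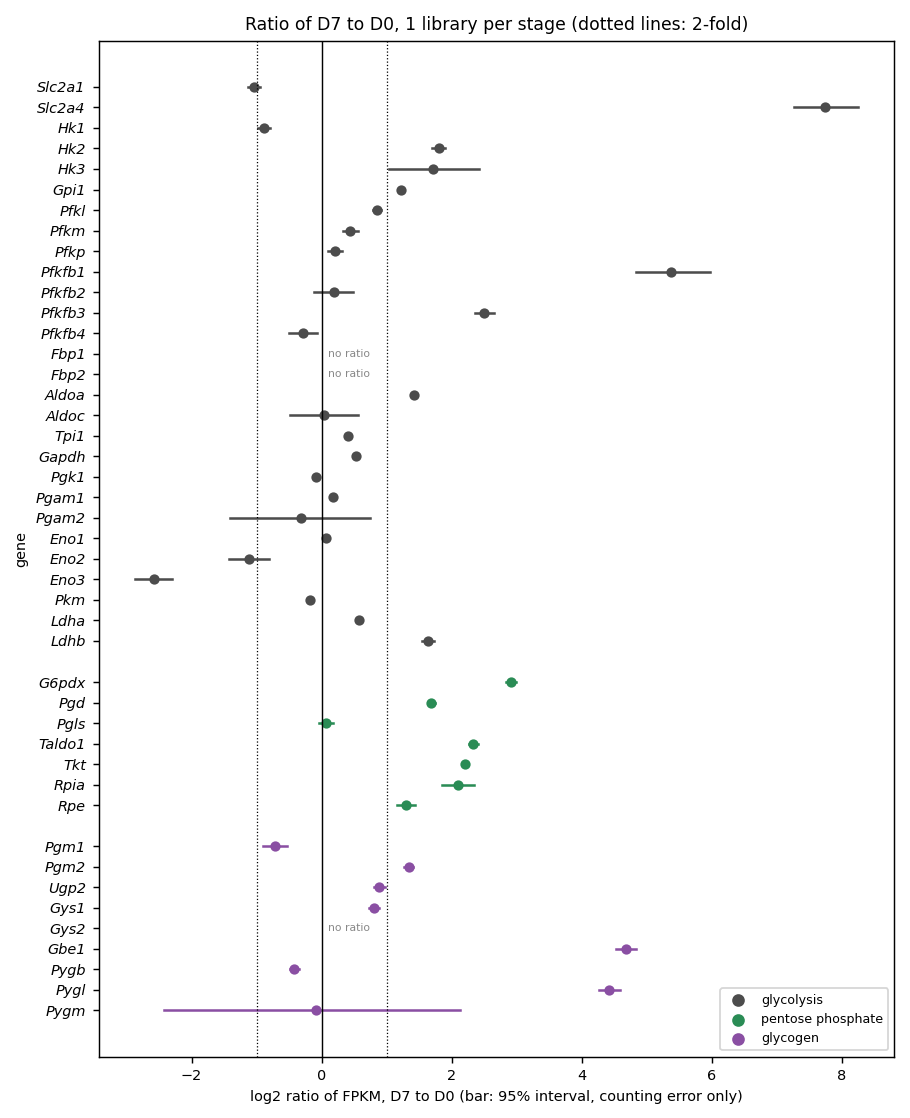
Log2 ratio of FPKM at D7 to D0 for the 41 genes above 0 in both libraries (points), with exact 95% intervals for counting error only (bars) and dotted lines at 2-fold. Of 7 pentose phosphate genes 6 lie right of the upper line, and Slc2a1, Eno2 and Eno3 lie left of the lower one. The points of Pfkp, Pfkfb2, Aldoc, Pgam1, Eno1 and Pgls lie right of 0 here and would lie left of it under the scaling by library medians.

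The pentose phosphate pathway had the highest median ratio of the 3 pathways, and its summed FPKM was 401 at D0 against 1474 at D7. In its oxidative branch, glucose phosphate dehydrogenase makes the first NADPH. Its gene G6pdx (ENSMUSG00000031400.10, chromosome X, 74409483 to 74429194) had an FPKM of 29.7 at D0 against 223 at D7, with a ratio of 7.51 (7.12 to 7.92), the highest of the pathway. Pgd, phosphogluconate dehydrogenase, which makes the next NADPH, had 101 at D0 against 325 at D7, with a ratio of 3.22 (3.11 to 3.33). Pgls, the lactonase between both, stood apart, with 94.1 at D0 against 98.7 at D7, and the interval of its ratio of 1.05 held 1 (0.972 to 1.13). At D0 the lactonase was at about the level of Pgd and Taldo1, and at D7 it was below both.

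The non-oxidative branch returns pentose phosphates to glycolysis, and all of its 4 genes were higher at D7. Taldo1, transaldolase, had an FPKM of 98.5 at D0 against 496 at D7, with a ratio of 5.03 (4.80 to 5.27), and was the most abundant gene of the pathway at D7. Tkt, transketolase, had 61.1 at D0 against 282 at D7, with a ratio of 4.61 (4.46 to 4.78). The enzymes that interconvert the pentose phosphates were less abundant. Rpia, ribose phosphate isomerase, had 4.85 at D0 against 20.7 at D7, with a ratio of 4.27 (3.60 to 5.09), and Rpe, the epimerase, had 11.9 and 29.3, with a ratio of 2.46 (2.24 to 2.71). None of the 7 promoter windows of the pathway held CACGTG or ACGTG, but the RefSeq start of G6pdx lies 24898 bases from the start of its deposited locus.

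Among 7 further genes of the pathway, 6 were in the table, 4 had a ratio and 1 was higher. This is 25% of the 4, beside 18.5% of all genes above 0 in both libraries. Shpk, which phosphorylates the sugar sedoheptulose, had 1.72 at D0 against 8.97 at D7, with a ratio of 5.22 (4.18 to 6.58). H6pd, which runs the oxidative steps inside the endoplasmic reticulum, had a ratio of 1.89. Prps1 and Prps2, which turn ribose phosphate into the precursor of nucleotides, had ratios of 1.01 and 1.09. Over the same interval 5 of 6 proliferation markers were lower, with a sum of 94.1 at D0 against 44.1 at D7.

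**Figure D4:**
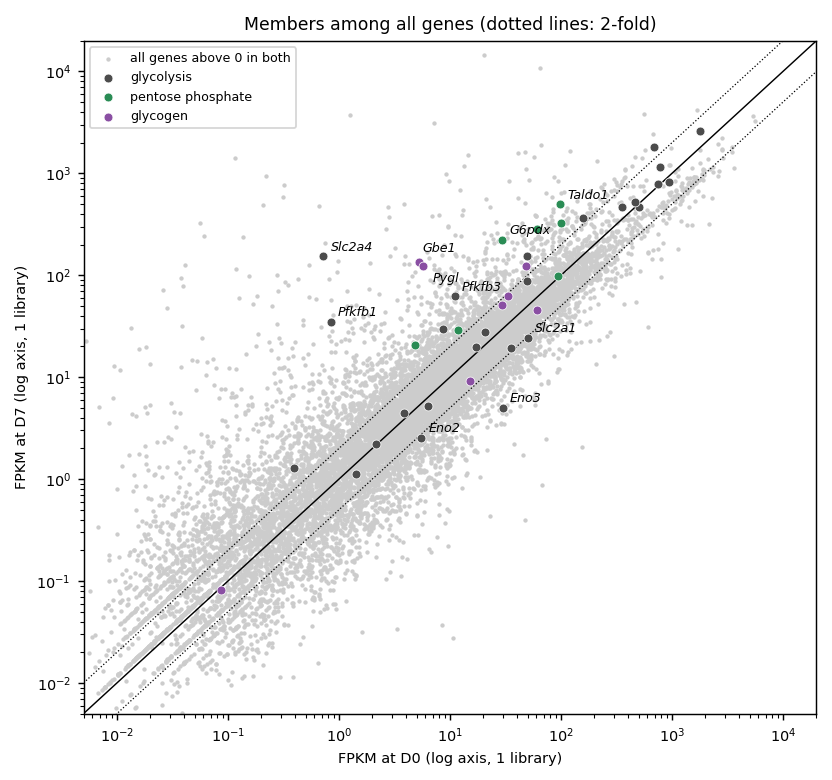
FPKM at D0 (x axis) against D7 (y axis), both log, for the 14984 genes above 0 in both libraries (grey) and the 41 members among them (coloured by pathway), with the line of equal values and dotted lines at 2-fold. Members that are 5-fold higher or 2-fold lower, or more, are named, and 6 of 7 pentose phosphate genes lie above the upper dotted line.

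Glycogen is built from glucose phosphate by way of UDP-glucose, and the summed FPKM of the 9 genes was 199 at D0 against 548 at D7. Gbe1 (ENSMUSG00000022707.16, chromosome 16, 70313949 to 70569716), the branching enzyme, had an FPKM of 5.22 at D0 (about 350 fragments) against 133 at D7 (about 7602). Its ratio was 25.5 (22.9 to 28.5), and 198 of the 11966 genes had a higher one. Ugp2, which makes UDP-glucose, had 33.6 at D0 against 61.9 at D7, a ratio of 1.84 (1.74 to 1.957). Gys1, the muscle form of glycogen synthase, had 29.5 at D0 against 51.3 at D7, a ratio of 1.74 (1.65 to 1.84). Gys2, the liver form, was listed at 0 at D0 and had 0.907 at D7, from about 41 fragments. With a limit of 0.0564 at D0 it was at least 16.1-fold higher at D7, and it made up 1.74% of the synthase sum.

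The phosphoglucomutases, which move the phosphate of glucose phosphate between glycolysis and glycogen, need care with names. The table's Pgm2, on chromosome 4 (99929414 to 99987294), is called Pgm1 in the annotation, and the table's Pgm1, on chromosome 5 (64092950 to 64128351), is called Pgm2 there. Under the names of the table, Pgm2 had an FPKM of 48.4 at D0 against 122 at D7, with a ratio of 2.52 (2.40 to 2.65). Pgm1 had 15.1 at D0 against 9.17 at D7, with a ratio of 0.609 (0.535 to 0.692). Pgm2 thus went from 76.3% of the sum to 93.0%.

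Glycogen phosphorylase releases glucose phosphate from glycogen, and its leading gene changed. Pygb (ENSMUSG00000033059.7, chromosome 2, 150786735 to 150831758), the brain form, had 61.0 at D0 against 45.6 at D7, with a ratio of 0.747 (0.714 to 0.782). Pygl (ENSMUSG00000021069.17, chromosome 12, 70190811 to 70231488), the liver form, had 5.76 at D0 against 123 at D7, with a ratio of 21.4 (19.1 to 23.96). Pygb was 10.6 times as high as Pygl at D0, and Pygl was 2.70 times as high as Pygb at D7. The share of Pygl was 8.62% at D0 and 73.0% at D7, its odds were 28.6 times as high (25.4 to 32.2), and the sum was 66.9 and 169. Pygm, the muscle form, was near the limit, with an FPKM of 0.0874 at D0 against 0.0823 at D7, or about 5 and 4 fragments.

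The promoters of both exchanging genes are at chr2:150786546-150786795 (plus strand) for Pygb and at chr12:70227684-70227933 (minus strand) for Pygl, from RefSeq and GRCm38.p6.
Pygb: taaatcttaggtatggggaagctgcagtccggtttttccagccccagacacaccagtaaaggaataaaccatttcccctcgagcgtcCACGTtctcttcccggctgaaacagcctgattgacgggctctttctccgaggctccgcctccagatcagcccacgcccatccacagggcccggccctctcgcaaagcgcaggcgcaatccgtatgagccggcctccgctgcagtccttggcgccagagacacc
Pygl: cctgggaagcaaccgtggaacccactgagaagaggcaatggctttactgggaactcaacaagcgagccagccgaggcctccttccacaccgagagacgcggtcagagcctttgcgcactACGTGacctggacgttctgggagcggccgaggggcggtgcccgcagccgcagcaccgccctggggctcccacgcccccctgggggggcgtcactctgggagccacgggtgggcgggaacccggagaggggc
The Pygb window held CACGT at 163 bases upstream of the start and the Pygl window held ACGTG at 131, so each held 1 match. Of 8 glycogen genes with a window, 5 held ACGTG, where 16.6% of the 32851 windows of all genes did. These were Pgm2 and Pygl, which were higher at D7, and Pgm1, Pygb and Pygm, which were under 2-fold.

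Of 22 other genes of glycogen metabolism, all had a ratio, and 10 were higher and 1 was lower. These make up 45.5% and 4.5% of the 22, beside 18.5% and 13.2% of all genes above 0 in both libraries. The subunits that bring protein phosphatase to glycogen, and so switch synthase on, included Ppp1r3c with 1.70 at D0 against 28.8 at D7, a ratio of 17.0 (13.8 to 21.2). Ppp1r3b, another of them, had 5.44 at D0 against 52.3 at D7, a ratio of 9.61 (8.73 to 10.6). Of the phosphorylase kinase subunits listed, Phkg1 was higher, with 0.427 at D0 against 2.24 at D7, a ratio of 5.24. Phka2 was higher too, with 2.54 and 8.17, a ratio of 3.21. Phka1, Phkb and Phkg2 were under 2-fold, with ratios of 0.876, 1.77 and 1.34. Pgm5, a relative of the phosphoglucomutases found at cell adhesions, had 0.400 at D0 against 8.26 at D7, a ratio of 20.6. Stbd1, a protein that binds glycogen, was lower, with 16.9 at D0 against 6.41 at D7 and a ratio of 0.379 (0.323 to 0.444). The primer protein glycogenin (Gyg), named after its values were seen, had 95.8 at D0 against 195 at D7, a ratio of 2.04 (1.95 to 2.13).

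Of 16 regulators known to act on these genes or on GLUT4 traffic, 6 were higher and 2 lower. These are 37.5% and 12.5% of the 16, beside 18.5% and 13.2% of all genes above 0 in both libraries. Mlxipl (ChREBP), a factor that answers to glucose, had about 1 fragment at D0 and 1918 at D7, that is, FPKM of 0.0134 and 30.5, and a ratio of 2275 whose interval runs from 408 to 89922. Its partner Mlx was under 2-fold, with a ratio of 1.71. Txnip, which restrains glucose uptake, had 111 at D0 against 352 at D7, a ratio of 3.16 (3.07 to 3.26). The hypoxia-inducible factors differed in direction, since Hif1a had 102 at D0 against 34.8 at D7, a ratio of 0.342 (0.328 to 0.357), and Epas1 (HIF-2α) had 2.01 and 24.8, a ratio of 12.4 (10.8 to 14.2). Hif1a was 50.6 times as high as Epas1 at D0 and 1.401 times at D7. Mef2c, a factor known to act at the GLUT4 gene, had 0.800 at D0 against 1.70 at D7, a ratio of 2.12 (1.43 to 3.19). Myc was under 2-fold, with a ratio of 0.671.

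The deposited loci of 8 members overlap another gene on the same strand, and those of Aldoa, G6pdx, Gys1, Hk1, Hk3, Pfkm, Pfkp and Tpi1, among others, overlap a gene on the opposite strand. Whether strand was used in counting is not stated in the sources used here, so fragments of overlapping genes could not be told apart and these values are uncertain to that extent.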

How the data were processed

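RNA-Seq libraries of D0 and D7 cells, 1 each, were prepared with degradation of the second cDNA strand and sequenced on an Illumina HiSeq instrument. The authors removed low-quality, duplicate and rRNA reads, aligned the rest to mm10 with SOAP2 (the submitters' processing notes name Bowtie2), and deposited for each gene its FPKM in either library. Of 27324 rows 3963 held no value, and 27 carried a date in place of a symbol. The deposited FPKM values were used without a pseudocount or rescaling, and symbols with 2 rows were represented by the row with the higher mean.

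Fragments were worked out on 600 single-exon genes. After shortening each gene by 180 bp at D0 and by 183 bp at D7, 100% of 79 and 90 low values (at most 20 fragments) came within 0.1 of a whole number. The FPKM of 1 fragment at D7 was 1.18 times that at D0. Genes with several exons were given the length of the named transcript (41 members) or of the longest coding one (3 members), so their fragments are approximate. Ratios were given exact Clopper-Pearson intervals and isoenzyme odds ratios intervals by the delta method, at 95%. A value at 0 allows up to 3 fragments. All intervals cover counting error only.

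Coordinates are from GENCODE M21 (GRCm38, the same build as mm10), where all 44 members were found, 2 of them under another symbol. Promoter sequences are from RefSeq (GRCm38.p6), taking the window nearest to the start of the deposited locus. Every member is named or counted in its step. From lists of other pathway genes, those past 2.0-fold with FPKM of at least 1 in a library are named, at most 5 in each direction. Gyg, G6pc, G6pc3, H6pd, Lnpep, Mef2c, Mlx, Myc, Phka1, Phkb, Phkg2, Prps1, Prps2 and Rab10 were named outside this rule, after their values were seen. Some genes of these lists are counted but not reported here. The members, lists and settings were chosen with earlier results of these data known. Markers of erythroid cells (5 of 6 at 0 in both libraries) and endothelium (summed FPKM 1.58 at D0 and 2.62 at D7) were also read. Pseudocounts of 0.1 and 1, median centring, upper quartile scaling, TPM, a floor of 0.01 together with scaling by library medians, summing of rows, a filter at FPKM of 1, a 4-fold threshold and shares of fragments were tried. Scripts were tested on simulated data. The scripts ran under Python 3.11.15 with scipy 1.17.1, pandas 2.3.3, numpy 2.4.6 and matplotlib 3.10.9.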

Additional observations from a re-analysis of the deposited data

How the results depend on the processing

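No paired analysis was possible because each stage had 1 library. The main limits are that single library, fragment numbers that are approximate for genes with several exons, and genes at a few fragments. The count of higher genes (17) was 16 and that of lower genes (3) was 5 under the floor of 0.01 with library medians, and they were 9 and 1 at a 4-fold threshold.

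The median log2 ratio of the members was 0.69 with a pseudocount of 0.1, 0.55 with a pseudocount of 1, 0.56 after median centring, 0.55 as TPM, 0.34 with the floor and library medians and 0.69 with the filter at FPKM of 1. That of glycolysis was 0.22 with a pseudocount of 1, 0.29 after centring and 0.28 as TPM, and it turned to -0.049 with the floor and library medians. That of the pentose phosphate pathway was 2.07, 1.89, 2.08, 2.07 and 1.74 with pseudocounts of 0.1 and 1, centring, TPM and the floor. That of glycogen was 0.88, 0.86, 0.83, 0.81 and 0.53 in the same order, and 0.88 with the filter. The scaling with library medians shifts all log2 ratios alike, by -0.35.

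With a pseudocount of 1, which weighs on low genes, shares at D0 were 96.8% for Slc2a1, 76.9% for Hk1, 46.2% for Pfkfb3, 99.5% for Aldoa, 99.5% for Pgam1, 96.8% for Gys1 and 88.8% for Pygb. At D7 they were 99.8% for Aldoa, 99.6% for Pgam1, 98.8% for Eno1 and 96.5% for Gys1. The odds ratios of D7 to D0 were then 0.00551 for Slc2a1, 0.184 for Hk1, 4.11 for Eno1 and 0.0471 for Pygb. With a pseudocount of 0.1 the share of Gys1 at D0 was 99.7%. As shares of fragments, not per length, D0 and D7 were 75.6% and 32.6% for Hk1, 58.8% and 67.5% for Pfkl, 42.0% and 60.9% for Pfkfb3, 99.9% and 99.9% for Pgam1, 95.8% and 91.7% for Ldha and 93.6% and 34.3% for Pygb. Slc2a1 was 17.3% and Gys1 98.8% at D7, Eno1 was 96.3% at D0, and the odds ratios were 2.15 for Pfkfb3 and 4.23 for Eno1.

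Among single genes, the log2 ratios of Gpi1, Rpe and Pgm2 were 0.87, 0.95 and 0.98 with the floor and library medians, short of 2-fold, while Hk1 and Pgm1 passed it at -1.24 and -1.07 and Pfkfb2, Aldoc and Pgls were at -0.17, -0.31 and -0.28. With a pseudocount of 1, Hk3 and Eno2 were short of 2-fold, at 0.71 and -0.88.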
